A study of Mus musculus with 10 samples.

Results

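The miR-200 family was followed through its 10 probes on the array, which were taken by name from the 1040 probes with mouse miRNA names: the guide strands mmu-miR-200a, mmu-miR-200b, mmu-miR-429, mmu-miR-200c and mmu-miR-141, and the minor strand of each, marked with an asterisk (the prefix mmu, for mouse, is left off from here on). RNA came from mIMCD-3 cells, an established line of the mouse inner medullary collecting duct, in 5 samples that received 100 nM aldosterone and 5 that received the ethanol vehicle. The cells of both groups were seeded on transwell filters (70000 cells, medium with 10% serum), grown to confluence and held in hormone-free medium for 24 h. The duration of treatment is not given in the sources used here. Titles of the groups share 5 starting codes (120P20, 1117P20, 107P19, 231 and 232), numbered here as replicates 1 to 5. Nothing in the labels tells whether each sample was its own culture. The p-values therefore speak of variation among these samples alone, and that variation may be technical.

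The family descends from a pair of gene clusters, one with miR-200b, miR-200a and miR-429 and one with miR-200c and miR-141. Its members repress ZEB1 and ZEB2, transcription factors that silence E-cadherin, and these factors in turn repress both clusters, so that high miR-200 marks epithelial cells and its loss accompanies the epithelial-mesenchymal transition. A miRNA selects its targets mainly through its seed, bases 2 to 8 from the 5′ end. Renal tubules and collecting ducts are epithelia, and aldosterone acts on the collecting duct through the mineralocorticoid receptor.

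The mature sequences are shown because the family falls into seed groups that cut across its clusters and because guide strands of different clusters differ at few positions. They are from RefSeq (GRCm38.p6, all 10 matched by name, the guide strands as the 3p and the minor strands as the 5p product), with the seed in capitals.
miR-200b: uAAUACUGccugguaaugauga
miR-429: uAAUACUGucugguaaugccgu
miR-200c: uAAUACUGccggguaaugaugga
miR-200a: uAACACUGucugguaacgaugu
miR-141: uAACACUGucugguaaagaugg
miR-200a*: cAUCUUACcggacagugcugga
miR-200b*: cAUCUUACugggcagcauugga
miR-429*: gUCUUACCagacaugguuaga
miR-200c*: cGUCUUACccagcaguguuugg
miR-141*: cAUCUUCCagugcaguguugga
miR-200b, miR-429 and miR-200c share one seed, and miR-200a and miR-141 another. Among 1679 mature mouse miRNAs in that table, no other carries either seed. The seeds differ by the substitution U4C (position counted from the 5′ end, miR-200b first, miR-141 second). Each member of the miR-200c cluster has a near match in the other cluster: miR-200b and miR-200c have the same base at 20 of 22 positions, differing by U11G and A22G, and miR-200a and miR-141 at 20 of 22, differing by C17A and U22G. Minor strands share less, with a common seed only in miR-200a* and miR-200b*.

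In that table all 5 hairpins lie on the minus strand. Mir200b (chr4:156055681-156055750), Mir200a (chr4:156054896-156054985) and Mir429 (chr4:156053905-156053987) are separated by 695 and 908 bases and lie within the long noncoding gene Gm13648, beside Ttll10. Mir200c (chr6:124718322-124718390) and Mir141 (chr6:124717914-124717985) are separated by 336 bases and lie between the coding genes Phb2 and Ptpn6, overlapping neither. The array files name no genome build.

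Each probe was spotted 2 times per array and was called detected where both spots exceeded the mean of the array's blank spots plus 2 SD, which was 1.88 to 2.67 intensity units above that mean. By this rule 234 to 510 mouse probes were detected per array. On all 10 arrays 212 of 1040 mouse probes (20.4%) were detected, as were 5 of 39 probes for viral miRNAs (12.8%). On 5 or more arrays 357 of 1040 mouse probes and 13 of 39 viral probes were detected. Detection on part of the arrays therefore does not by itself show that a miRNA was present. The median CV of duplicate spots was 9.57% to 12.2%. Arrays differed in overall brightness: probes detected throughout had a median raw signal above blank of 20.9 to 75.8 intensity units on aldosterone arrays and 12.3 to 44.8 on vehicle arrays. In each of the 5 same-numbered pairs the aldosterone array was the brighter.

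The cluster of miR-200b, miR-200a and miR-429 was present through its guide strands, and that of miR-200c and miR-141 was at or near the blank level in these cells. miR-200a, miR-200b and miR-429 passed on every array of the 10, at least 22.4, 17.3 and 2.97 blank SDs above the blank mean. miR-200c was detected on 2 arrays and miR-141 on 1. miR-200c averaged 2.55 ± 1.55 intensity units above blank with aldosterone and 1.37 ± 1.02 with vehicle, and miR-141 1.11 ± 0.84 and 0.72 ± 0.24 (SD, n = 5 each). miR-200c passed only on the replicate 3 arrays, at 5.29 units with aldosterone and 3.12 with vehicle. These are also the arrays with the highest miR-200b, which differs from miR-200c at 2 of 22 positions and stood there at 452 and 282 units. Whether miR-200b contributed to those miR-200c spots was not tested. On the other 8 arrays the miR-200c probe stayed between 0.58 and 2.23 units while miR-200b was at 20.7 to 97.6. miR-141 passed on the aldosterone array of replicate 3 alone, at 2.46 units. There miR-200a, which differs from miR-141 at 2 of 22 positions, stood at 485 units. Whether miR-200a contributed to those miR-141 spots was not tested.

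Minor strands of both clusters were mostly undetected. miR-200a*, miR-429* and miR-141* were detected on no array by the rule, miR-200b* on 1 and miR-200c* on 2. Mean intensity above blank over the 10 arrays ranged from 0.70 to 3.002 for miR-200a*, 0.32 to 3.77 for miR-200b*, -1.06 to 1.68 for miR-429*, -0.10 to 3.06 for miR-200c* and -1.37 to 1.07 for miR-141*. The miR-200b* array that passed was again aldosterone replicate 3. These 7 dim probes did not reach detection on 5 of 10 arrays, the minimum for testing, and have no comparison between groups. A miRNA below this array's detection may still be present in the cells, and probes differ in hybridization efficiency, so no probe's level is compared with another's.

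**Figure D1:**
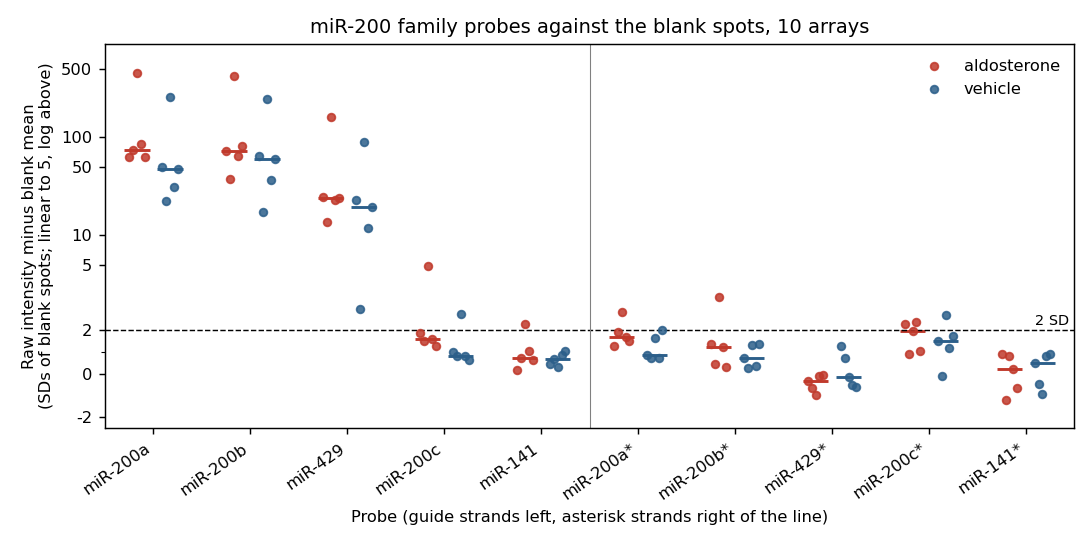
Mean of the 2 spots of each family probe, as raw intensity minus the mean of the blank spots in SDs of the blank spots (axis linear to 5, logarithmic above), for the 5 aldosterone and 5 vehicle arrays, with a bar at each group's median. The guide strands miR-200a, miR-200b and miR-429 lie above the dashed line at 2 SD on all 10 arrays, and most points of the other 7 probes lie below it.

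Before any scaling, the signals of the 3 detected guide strands differed widely between arrays. miR-200a was 75.1, 85.1, 485, 105 and 74.8 intensity units above blank on aldosterone replicates 1 to 5, against 66.3, 26.8, 291, 29.3 and 44.3 on vehicle replicates 1 to 5. miR-200b was at 86.8, 43.6, 452, 79.0 and 97.6 with aldosterone, against 85.6, 20.7, 282, 34.9 and 56.3 with vehicle. miR-429 was at 29.4, 15.9, 171, 28.0 and 28.7 with aldosterone, against 31.1, 3.55, 103, 11.1 and 18.4 with vehicle. Replicate 3 was the highest of its group for each of the 3 miRNAs, and the groups overlapped. The replicate 3 arrays were also the brightest overall within their groups, and vehicle replicate 2, the dimmest array, had the lowest value of each miRNA.

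A ratio of 2 probes on the same array does not depend on how arrays are scaled to each other, though its size also reflects the probes, so only its change between arrays is read. The ratio of miR-200b to miR-429 lay between 2.65 and 3.40 on 9 arrays and was higher on 1. It was 2.95, 2.75, 2.65, 2.82 and 3.40 on aldosterone replicates 1 to 5, against 2.76, 5.83, 2.74, 3.14 and 3.06 on vehicle replicates 1 to 5. The only value above 3.40 came from vehicle replicate 2, where miR-429 stood 2.97 blank SDs above the blank mean. Both miRNAs come from 1 cluster and carry the same seed.

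The ratio of miR-200a to miR-200b, also neighbours in that cluster, ran from 0.77 to 1.95. It was 0.87, 1.95, 1.07, 1.33 and 0.77 on aldosterone replicates 1 to 5, against 0.77, 1.29, 1.03, 0.84 and 0.79 on vehicle replicates 1 to 5. Replicate 2 had the highest ratio in both groups, and the pairs of replicates 1, 3 and 5 differed little. The duplicate spots of miR-200a on vehicle replicate 4 disagreed by 3.07 times (44.2 and 14.4 units), although neither carries a quality mark. With the brighter spot alone the ratio on that array was 1.26, beside 1.33 on aldosterone replicate 4. This spot was singled out after its values were seen. Between the groups, the log2 ratio of miR-200a to miR-200b differed by 0.29 (exact permutation p = 0.310, two-sided; higher with aldosterone in 4 of 5 pairs), that of miR-200a to miR-429 by 0.08 (exact permutation p = 0.817) and that of miR-200b to miR-429 by -0.21 (exact permutation p = 0.444). After Benjamini-Hochberg adjustment over these 3 comparisons the permutation p-values were 0.667, 0.817 and 0.667, so no ratio differed beyond the spread between arrays.

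**Figure D2:**
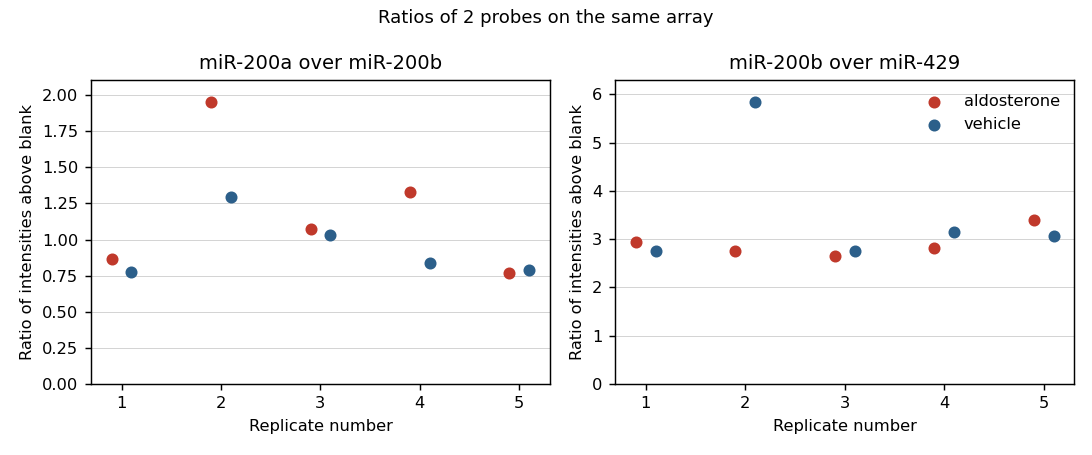
Ratio of background-subtracted intensities on the same array, miR-200a over miR-200b (left) and miR-200b over miR-429 (right), against replicate number, for aldosterone and vehicle arrays. The right-hand ratio lies between 2.65 and 3.40 on all arrays except vehicle replicate 2 (5.83), while the left-hand ratio runs from 0.77 to 1.95 and is highest at replicate 2 in both groups.

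For the comparison of aldosterone with vehicle, raw intensities were background-corrected with an offset of 50, put on a log2 scale and quantile-normalized. Levels below are normalized intensities with the offset taken off, and log2 changes are on the log2(intensity + 50) scale, which understates changes of dim probes. The comparison asks whether the hormone altered the family in these cells. All 3 tested members had higher mean levels with aldosterone, as did 182 of the 357 probes tested (51%). In the fit without pairing, none of the 3 differences exceeded the spread between arrays. The fit blocked on replicate number is given further below.

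miR-200a was at 71.2, 106, 161, 103 and 89.9 on aldosterone replicates 1 to 5, against 65.7, 65.7, 151, 60.2 and 68.5 on vehicle replicates 1 to 5. It averaged 106 ± 33.6 with aldosterone and 82.2 ± 38.6 with vehicle (SD, n = 5 each), a log2 change of 0.26 (SE 0.20, 95% interval -0.19 to 0.70). The aldosterone array was higher in 5 of 5 pairs, by 0.07 to 0.47 on the log2 scale, while the groups overlapped because replicate 3 was high in both. The limma adjusted p was 0.886, the exact permutation p 0.262 and the exact sign-flip p over pairs 0.0625, the smallest that 5 pairs allow.

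miR-200b was at 81.2, 68.5, 148, 83.3 and 120 with aldosterone, against 86.9, 55.4, 148, 71.2 and 92.1 with vehicle. It averaged 100.1 ± 32.7 with aldosterone and 90.6 ± 34.9 with vehicle (SD, n = 5 each), a log2 change of 0.10 (SE 0.19, 95% interval -0.33 to 0.53). It was higher in 3 pairs, lower in 1 and tied at replicate 3, where quantile normalization gave both arrays the same value (limma adjusted p = 0.926, exact permutation p = 0.635, exact sign-flip p = 0.25).

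miR-429 was at 28.9, 25.3, 65.7, 30.7 and 33.9 with aldosterone, against 30.7, 9.75, 62.6, 23.9 and 30.2 with vehicle. It averaged 36.9 ± 16.4 with aldosterone and 31.4 ± 19.4 with vehicle (SD, n = 5 each), a log2 change of 0.11 (SE 0.17, 95% interval -0.28 to 0.50). It was higher in 4 of 5 pairs, with the widest gap in replicate 2 (limma adjusted p = 0.9004, exact permutation p = 0.516, exact sign-flip p = 0.125).

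**Figure D3:**
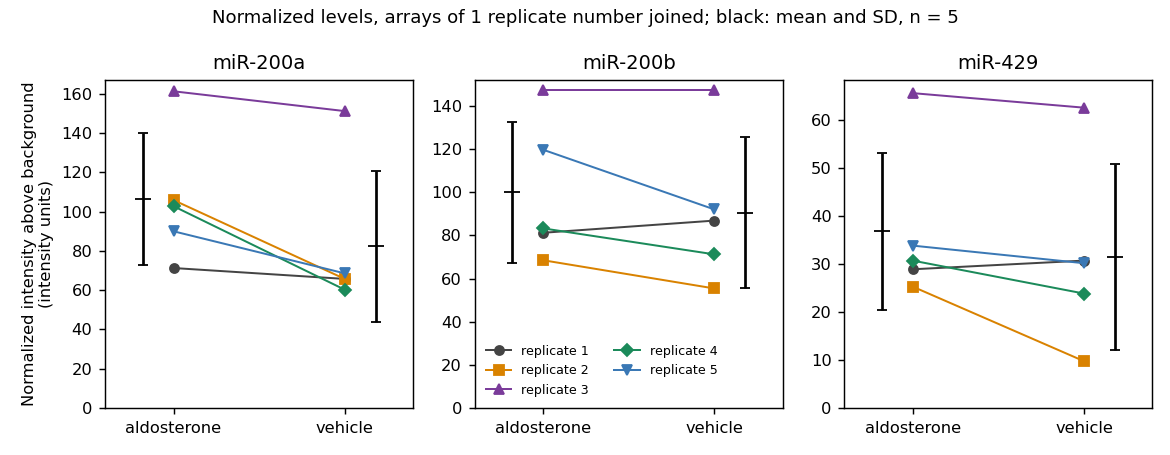
Normalized intensity above background of the 3 detected guide strands on aldosterone (left) and vehicle (right) arrays, with lines joining the 2 arrays of a replicate number and the mean and SD of each group (n = 5) in black. Replicate 3 is the highest in both groups for each miRNA, and miR-200a slopes down from aldosterone to vehicle in all 5 pairs.

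Of the 357 mouse probes tested, 0 passed an adjusted p of 0.05 (0%, limma; the smallest was 0.886). Before adjustment, 5 probes lay under 0.05 (1.4%). Same-numbered arrays deviated together, least so in replicate 5, and blocking on replicate number narrowed the family's intervals. The blocked log2 change of miR-200a was 0.26 (SE 0.07, 95% interval 0.07 to 0.44), that of miR-200b 0.10 (SE 0.05, -0.03 to 0.23) and that of miR-429 0.11 (SE 0.06, -0.03 to 0.25). With the block again 0 probes passed (0%), and the limma adjusted p was 0.687 for each of the 3. Before adjustment 19 of 357 probes (5.32%) lay under 0.05 in the blocked limma fit, with miR-200a among them at an unadjusted limma p of 0.0171 and an adjusted p of 0.687. A level higher in all 5 pairs was found for 14 of 357 probes (3.92%), miR-200a among them.

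The disagreeing miR-200a spot bears on this difference. Without it, miR-200a on vehicle replicate 4 was at 94.8 in place of 60.2, the difference in that pair was 0.08 in place of 0.47, and the log2 change over all arrays was 0.18, still higher in 5 of 5 pairs (limma p with the block 0.0337, exact sign-flip p = 0.0625). The part of overall array brightness, which was higher with aldosterone in 5 of 5 pairs, was not tested.

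The size of these differences changed with background correction and scaling. The log2 change of miR-200a was 0.58 without normalization between arrays, where the median of all tested probes was 0.07. It was 0.93 in the authors' scaled values, which carry no offset, where the median of the 524 probes tested was 0.27. With blank mean subtraction and no offset, again quantile-normalized, the log2 changes of miR-200a, miR-200b and miR-429 were 0.46, 0.17 and 0.46. Under 75th percentile scaling the median of all tested probes was -0.33, and 12.3% of them were higher with aldosterone. There the log2 change of miR-200a was 0.17, that of miR-200b 0.003 and that of miR-429 -0.14. Leaving out 1 array of a pair moved the values of all 3 members. The log2 change of miR-200a was 0.14 without aldosterone replicate 3 and 0.42 without vehicle replicate 3. That of miR-200b was -0.005 without aldosterone replicate 3, 0.23 without vehicle replicate 3 and 0.005 without vehicle replicate 2, and that of miR-429 was -0.001, 0.23 and 0.003. Without both arrays of replicate 3 the log2 changes of miR-200b and miR-429 were 0.13 and 0.12, and without both of replicate 2 they were 0.083 and 0.050.

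**Figure D4:**
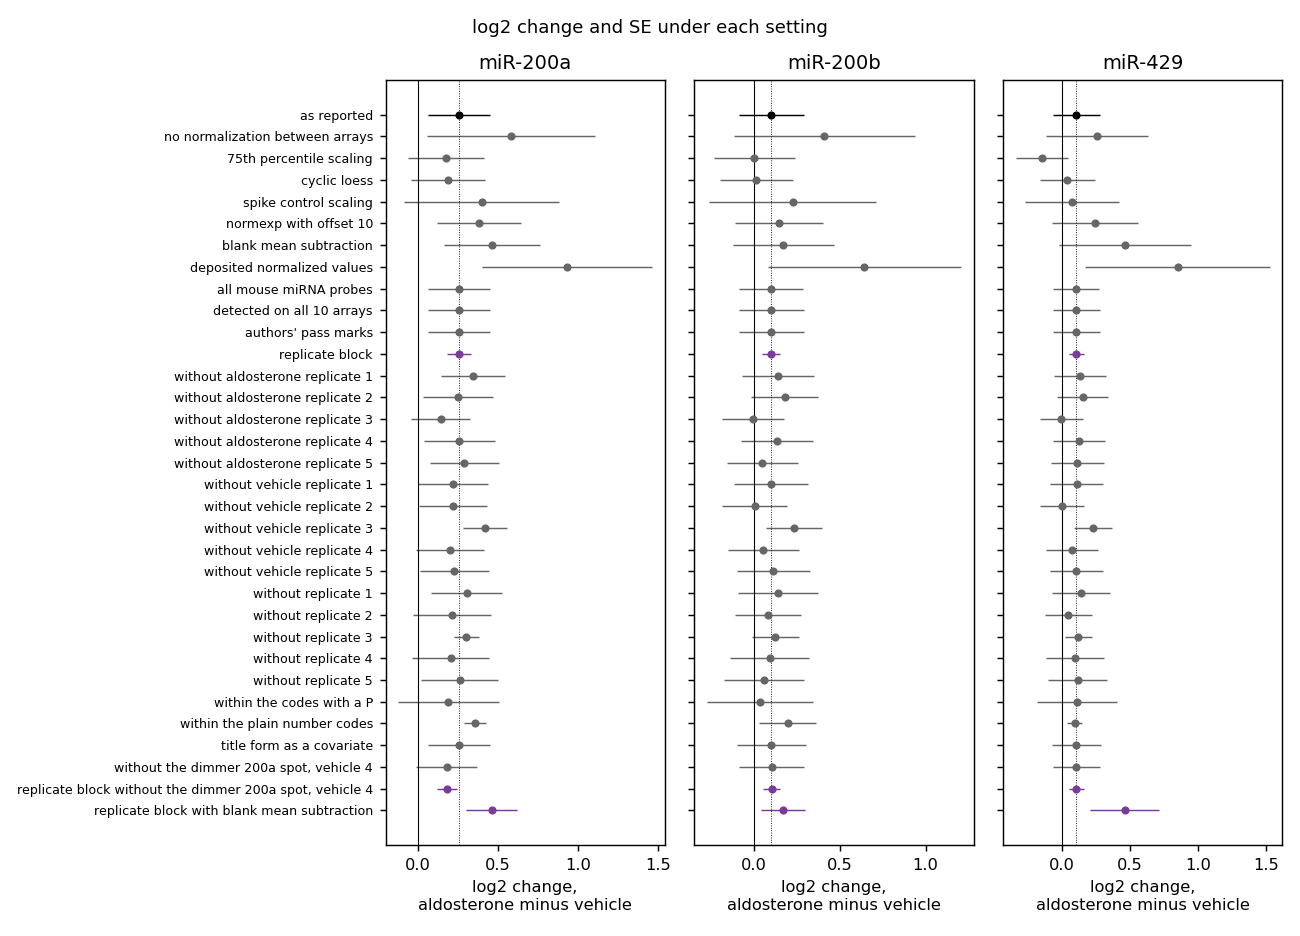
log2 change (aldosterone minus vehicle) with its SE for miR-200a, miR-200b and miR-429 under each setting, the reported one in black and fits with the replicate block in purple. miR-200a stays above 0 throughout, from 0.14 to 0.93, while miR-200b and miR-429 fall below 0 without aldosterone replicate 3. miR-429 also falls below 0 under 75th percentile scaling. The highest values of miR-200b and miR-429 are 0.64 and 0.85, in the authors' scaled values.

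The family was also compared among replicate numbers, where replicate 3 stood highest. Mean normalized levels of miR-200a over the 2 arrays of a replicate number were 68.5, 85.8, 156, 81.5 and 79.2 for replicates 1 to 5. Those of miR-200b were 84.1, 62.0, 148, 77.3 and 106, and those of miR-429 were 29.8, 17.5, 64.2, 27.3 and 32.03. For miR-200a the highest was 2.28 times the lowest, for miR-200b 2.38 times and for miR-429 3.66 times. The lowest was replicate 1 for miR-200a but replicate 2 for miR-200b and miR-429.

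A test among the 5 replicate numbers, with agent as a covariate, called 12 of 357 probes (3.36%, limma F test, adjusted p under 0.05). miR-200b was among them (adjusted p = 0.0413, rank 6 of 357 by F), while miR-429 (adjusted p = 0.0517, rank 13) and miR-200a (adjusted p = 0.0863, rank 20) fell outside. In log2 units, miR-200a had an SD among replicate means of 0.316, miR-200b 0.315 and miR-429 0.283 (ranks 17, 18 and 24 of 357). Over all tested probes the median was 0.0451 and the 90th percentile 0.245. That median includes dim probes, whose changes this log2 scale understates. Within replicate numbers the SDs of miR-200a, miR-200b and miR-429 were 0.135, 0.0912 and 0.0987, against a median of 0.0419.

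The call for miR-200b was lost without both arrays of replicate 3 (adjusted p = 0.330), of replicate 4 (0.105) or of replicate 2 (0.0553, limma F test). Without replicate 2, miR-429 passed instead (limma F test, adjusted p = 0.0207, rank 5). It also passed beside miR-200b when only probes detected on all 10 arrays were tested (limma F test, adjusted p = 0.0467). Without replicate 3, miR-200a stood at rank 240 by F (adjusted p = 0.720) and miR-429 at rank 83 (adjusted p = 0.439), while the log2 change of miR-200a with aldosterone was 0.30 on those arrays (SE 0.08, limma adjusted p = 0.868). Under 75th percentile scaling 337 of 357 probes (94.4%) were called. miR-200a and miR-200b were among them at ranks 276 and 277, while miR-429 had rank 353 and was not. The call for miR-200b was also lost with blank mean subtraction (adjusted p = 0.0677). Replicate 3 was the highest for each of the 3 miRNAs under each of the 8 settings of background correction and scaling tried, by 0.58 to 0.69 log2 units over the mean of the other replicates after quantile normalization, against -0.005 for the median tested probe. The excess was 0.12 for miR-429 under 75th percentile scaling, where the median tested probe was at -1.03, and 2.35 in the authors' scaled values, where it was at 0.53. Replicate 3 also had the brightest arrays, and the part of brightness in its family levels was not tested.

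**Figure D5:**
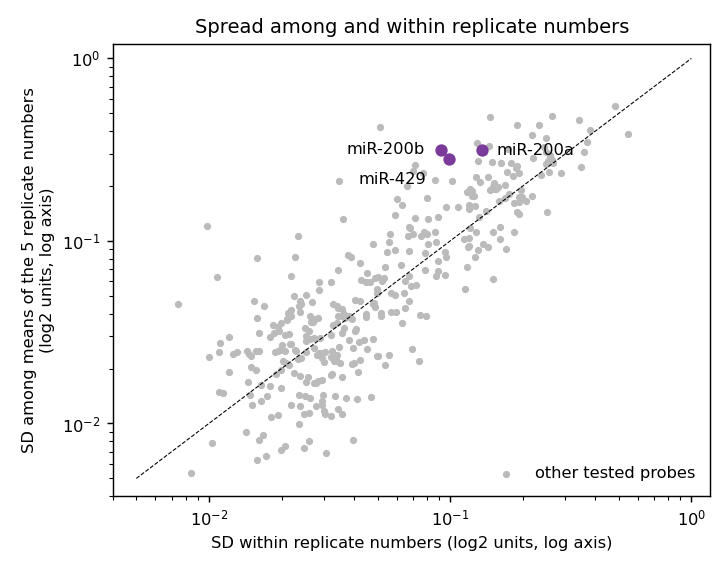
SD among the means of the 5 replicate numbers against the SD within replicate numbers (log2 units, both axes logarithmic), 1 point per tested probe, leaving out 1 probe with no spread within replicate numbers. miR-200a, miR-200b and miR-429 (purple) have SDs among replicate numbers of 0.28 to 0.32, above the dashed line of equal spread.

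The 5 miRNAs most like the family across arrays were picked among the other 354 tested probes by Pearson correlation, over the 10 arrays, with the mean of the 3 members' centred log2 levels. They were miR-374 (r = 0.91, Spearman rho 0.85), miR-98, a let-7 relative (0.91, 0.92), miR-15a, a cell-cycle miRNA (0.90, 0.80), miR-503 (0.88, 0.68) and let-7i (0.88, 0.82). miR-374 was detected on 5 of the 10 arrays, with normalized intensities of 3.28 to 9.53, so much of its signal was near the blank level. miR-503 was detected on 9, and miR-98, miR-15a and let-7i on all 10. The correlations describe these 10 arrays, which share brightness and replicate numbers, and carry no test. The median r of the 354 probes was -0.05. Since they were chosen by that correlation, their peak in replicate 3 follows from the choice. Mean normalized intensities over that replicate's arrays were 8.65 for miR-374, 23.0 for miR-98, 80.6 for miR-15a, 13.0 for miR-503 and 176 for let-7i. None differed among replicate numbers past the threshold (limma F test, adjusted p 0.112 to 0.330). With aldosterone miR-15a averaged 64.7 ± 12.4 and with vehicle 49.5 ± 17.4 (SD, n = 5 each; log2 change 0.22, SE 0.12, limma adjusted p = 0.886), and the other 4 had log2 changes of 0.01 to 0.13, also short of the threshold.

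Other miRNAs tied to the epithelial state were compared through a list of 13 probes, of which 4 were detected on all 10 arrays, 5 on 1 to 9 and 4 on none. Of 7 tested, 0 passed between aldosterone and vehicle, with 4 mean changes above 0 and 3 below, and a median log2 change of 0.0035 (0.0008 over all tested probes). miR-96, miR-182 and miR-183, a cluster of sensory and epithelial cells, were all detected throughout. miR-96 averaged 86.9 ± 18.2 with aldosterone and 81.1 ± 23.0 with vehicle, miR-182 88.6 ± 16.8 and 94.8 ± 11.5, and miR-183 18.9 ± 2.36 and 20.5 ± 3.60 (SD, n = 5 each). miR-34a, a p53 target that represses Snail, averaged 39.4 ± 10.8 with aldosterone and 33.999 ± 7.13 with vehicle. miR-203 and miR-205, miRNAs of stratified epithelia, were detected on 2 arrays and 1 array.

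The mesenchymal-state list, miRNAs associated with invasion or with fibroblasts, comprised 11 probes, of which 6 were detected throughout and tested, and 0 passed (3 changes above 0 and 3 below, median log2 change 0.01). miR-21 averaged 1736 ± 696 with aldosterone and 1111 ± 556 with vehicle, miR-31 199.8 ± 29.97 and 193 ± 27.7, and miR-10b 75.9 ± 14.6 and 76.8 ± 10.7 (SD, n = 5 each). Levels of miR-221 were 63.9 ± 7.33 with aldosterone, against 70.7 ± 5.56 with vehicle, those of miR-222 27.6 ± 3.53 and 33.9 ± 11.6, and those of miR-155 29.6 ± 6.49 and 28.1 ± 13.1. The smallest limma adjusted p in either list was 0.886. Neither list had a member that differed among replicate numbers past the threshold (limma F test).

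Among 22 marker probes for other cell types, 1 was detected throughout: miR-128, a neuron-enriched miRNA, at 10.8 ± 1.26 with aldosterone, against 9.72 ± 1.64 with vehicle (SD, n = 5 each). miR-206 (muscle) and miR-126-3p (endothelium) were detected on 9 arrays each and miR-9 (neuron) on 6. The other probes of those lists, miR-1, miR-133a and miR-133b (muscle), miR-126-5p (endothelium) and miR-124 (neuron), were detected on no array. Of the 5 fibroblast probes, miR-199a-5p was detected on 4 arrays and miR-214 on 2, while miR-143, miR-145 and the shared probe of miR-199a-3p and miR-199b were detected on no array. The summed signal above blank of all 5 was 4.43 to 14.2 intensity units with aldosterone and 2.36 to 10.1 with vehicle. Of the 6 blood probes, miR-150 was detected on 3 arrays and the other 5 on none, and the islet marker miR-375 and the liver marker miR-122 were detected on none.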

How the data were processed

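Single-colour miRNA arrays of 500 ng total RNA labelled with Hy5 were measured in 10 samples. The array files deposited by the authors hold raw spot intensity (3136 spots, 778 blank). Per the deposited note, the authors subtracted the blank mean, kept spots above it plus 2 SD, averaged duplicates (with a CV, a ratio of SD to mean) and scaled each array to a median of 25. The lowest kept spot in fact lay 1.15 to 1.50 SDs of the unmarked blank spots above their mean, so detection was recomputed here. No source used here names the scanner.

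Raw intensity was corrected by normexp (offset 50, all spots), log2-averaged over duplicates and quantile-normalized over 1040 mouse probes (R 4.3.3, limma 3.58.1); 4 spots marked by the file were left out. Probes detected on 5 or more arrays were tested (357) with lmFit and eBayes, Benjamini-Hochberg threshold 0.05. The procedure was tested on simulated data with independent noise and planted changes large beside that noise. Such a test does not show power for changes of the size seen here. The deposited value table equalled the array files' scaled column (6454 values, largest difference 0). Members and lists were chosen with earlier results of these data known. Named miRNAs were the members, list members detected on all arrays, or otherwise the 2 of smallest p, markers detected throughout and the 5 most like the family; miR-203, miR-205, miR-206, miR-126-3p, miR-9, miR-1, miR-133a, miR-133b, miR-126-5p, miR-124, miR-199a-5p, miR-214, miR-143, miR-145, miR-199a-3p, miR-199b, miR-150, miR-375 and miR-122 are named for detection only, after their values were seen.

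Same-numbered arrays correlated in their deviations from group means at r of 0.21 to 0.82 (5 pairs, across probes). The best match in the other group was the same-numbered array, except for aldosterone replicate 5 (r = 0.21), which matched vehicle replicate 2 best. Samples were paired here by title code on this ground, which is weakest for replicate 5, and no label states the pairing. The number of arrays limits the precision.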

Additional observations from a re-analysis of the deposited data

Results flagged for a closer look

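Values far from the other 4 of their group were found in 10 of 21 groups examined. Chance marks about 1 in 20 independent groups, but these groups share arrays and miRNAs, so the count cannot be read against that rate. Most are replicate 3. Before scaling these were miR-200a at 485 and 291 intensity units above blank (aldosterone, vehicle), miR-200b at 452 and 282, and miR-429 at 171 and 103. After quantile normalization, on the log2 scale, 2 remained: miR-429 at 65.7 on the aldosterone array and miR-200a at 151 on the vehicle array of replicate 3. On vehicle replicate 2 the ratios of miR-200a to miR-429 (7.54) and of miR-200b to miR-429 (5.83) stood apart, where miR-429 was 3.55 units above blank.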

How the results depend on the processing

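Across 32 alternative settings each, 0 log2 changes of miR-200a, miR-200b or miR-429 passed the threshold (limma, adjusted p 0.576 to 1), and 0 of all tested probes passed in any of them. miR-200a kept its direction in 32 of 32 and ranged from 0.14 to 0.93. miR-200b turned below 0 in 1 (-0.0054, without aldosterone replicate 3) and miR-429 in 2 (-0.0012 without aldosterone replicate 3, -0.145 under 75th percentile scaling). The cause was not tested. Their highest values, 0.643 for miR-200b and 0.851 for miR-429, were in the authors' scaled values, which carry no offset. Leaving out 1 array gave 0.141 to 0.417 for miR-200a, -0.0054 to 0.231 for miR-200b and -0.0012 to 0.231 for miR-429, and leaving out a replicate number 0.202 to 0.303, 0.061 to 0.141 and 0.050 to 0.141. The replicate block kept the 3 values at 0.256, 0.100 and 0.106 and changed no call. Within the 3 codes that contain a P the log2 changes were 0.189, 0.036 and 0.113, and within the 2 plain number codes 0.355, 0.197 and 0.096. With normexp at an offset of 10 they were 0.383, 0.145 and 0.245.

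Counts of probes that differed among replicate numbers, 1 family probe and 12 in all, moved most. They were 3 and 217 without normalization, 2 and 337 under 75th percentile scaling, 3 and 54 with cyclic loess, 3 and 97 under spike control scaling, 3 and 100 in the authors' scaled values (336 probes tested), 0 and 3 with blank mean subtraction, and 2 and 10 over probes detected on all arrays. Leaving out a replicate number gave 0 to 1 family probe and 2 to 23 in all; the causes were not tested.

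Detection of dim members depended on the rule. With at least 1 of 2 spots it was 5 arrays for miR-200c, 4 for miR-200a*, 3 for miR-200b*, 1 for miR-429* and 5 for miR-200c*. With 3 SD it was 1 for miR-200c and 0 for miR-141 and miR-200c*, and the guide strand miR-429 fell from 10 arrays to 9. The authors' own pass marks, an alternative chosen after seeing the data, gave 3 for miR-200a* and 3 for miR-200c*. The authors' table holds values on 6 arrays for miR-200c, 5 for miR-141, 8 for miR-200a*, 6 for miR-200b*, 1 for miR-429*, 8 for miR-200c* and 2 for miR-141*. Signal near the blank level limits what these 7 probes show. Settings without the dimmer miR-200a spot were also added after seeing the data.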
